A study of Mus musculus with 16 samples.

Results

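The cytochrome P450 genes of the mouse colon are described here, 76 genes among the 39328 of the deposited expression table. They are the genes whose symbol consists of Cyp, a family number, a subfamily letter and a member number, apart from a pair of names left out. Colon RNA was sequenced from mice of the outbred ICR strain with a wild-type genotype, in 4 groups of 4 libraries. CON_VD mice were born by vaginal delivery (VD) and CON_CS mice by cesarean section (CS), and both drank normal water. DSS_VD and DSS_CS mice, born by the same routes, received 3% dextran sulfate sodium (DSS), a polymer that injures the lining of the colon, for 8 days. The labels state no age, and they do not say that each library came from a separate mouse or which litters were used, so the p-values measure the spread between these samples, which may in part be technical.

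Cytochrome P450 enzymes hold a heme group and use electrons passed on by P450 oxidoreductase, or by ferredoxin in mitochondria, to insert an oxygen atom into their substrates. Members of the CYP1, CYP2 and CYP3 families act on drugs, plant compounds and arachidonic acid, those of the CYP4 family hydroxylate the ends of fatty acids and leukotrienes, and others build or break down bile acids, oxysterols, steroid hormones, vitamin D and retinoic acid. In the gut the xenobiotic enzymes are made mainly by epithelial cells, under nuclear receptors such as the pregnane X receptor and HNF4A, while the aryl hydrocarbon receptor (AHR) switches on the CYP1 genes in many cell types.

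Promoter sequence is shown first for the genes around which the results turn: 4 neighbouring Cyp2c genes on chromosome 19 that were low in every DSS library, and the pair of CYP1 genes, since Cyp1b1 was higher under DSS while Cyp1a1 stayed low. The windows are from RefSeq (build GRCm38.p6) and are written 5′ to 3′ on the gene's own strand. In the Cyp2c windows, capitals mark CAAAGTCC, letters within the known motif of HNF4A, and TATAAA, the letters of the TATA box motif. In the CYP1 windows, capitals mark GCGTG, the core of the site that AHR binds, or its reverse complement.
Cyp2c40 chr19:39812765-39812869 (minus strand): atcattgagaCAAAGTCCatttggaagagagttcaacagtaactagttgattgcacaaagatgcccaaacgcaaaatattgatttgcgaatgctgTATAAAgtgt
Cyp2c69 chr19:39886750-39886854 (minus strand): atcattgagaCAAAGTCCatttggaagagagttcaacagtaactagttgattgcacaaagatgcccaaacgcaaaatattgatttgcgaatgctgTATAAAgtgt
Cyp2c67 chr19:39649073-39649177 (minus strand): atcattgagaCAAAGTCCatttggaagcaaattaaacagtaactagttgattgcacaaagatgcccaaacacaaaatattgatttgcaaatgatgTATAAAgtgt
Cyp2c68 chr19:39741084-39741188 (minus strand): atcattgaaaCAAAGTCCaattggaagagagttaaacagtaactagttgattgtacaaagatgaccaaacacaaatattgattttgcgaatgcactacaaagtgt
Cyp1b1 chr17:79715108-79715167 (minus strand): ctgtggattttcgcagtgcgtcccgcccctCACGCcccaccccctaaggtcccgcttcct
Cyp1a1 chr9:57697529-57697588 (plus strand): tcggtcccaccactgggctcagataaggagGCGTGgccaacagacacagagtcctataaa

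The Cyp2c40 and Cyp2c69 windows were identical over all 105 bases, the Cyp2c67 window matched them at 98 bases and the Cyp2c68 window at 90. TATAAA lay 85 bases after the start of CAAAGTCC in 3 of the 4 genes and was absent from the Cyp2c68 window. RefSeq places the start of transcription differently in these copies, so that CAAAGTCC begins 45 bases before it in Cyp2c40, 125 in Cyp2c67, 77 in Cyp2c68 and 75 in Cyp2c69. TATAAA thus begins 40 bases after the RefSeq start in Cyp2c40 and 10 bases after it in Cyp2c69, which is not where a TATA box lies, and 40 bases before it in Cyp2c67. A RefSeq promoter, from 250 bases before to 50 bases after the start, was matched to 59 of the 76 genes, with 67 promoters among them, and both strands were searched. CAAAGTCC was found in 12 of the 67 promoters (17.9%) against 1.42% of all 32851 mouse promoters in the table, and 7 of the 12 genes belong to the Cyp2c subfamily. The motif was chosen after values were seen, and it does not mark the genes that fell. It was also found in Cyp4f18, which rose with DSS, and in Cyp8b1. Neither Cyp2c55 nor any of the 5 Cyp2d genes with a promoter held it. TATAAA was found in 24 of the 67 (35.8%) against 13.6% of all promoters, and GCGTG in 16 (23.9%) against 32.4%. A match of letters describes the sequence and is no evidence that a factor binds there.

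Levels are the FPKM that the authors deposited, which count the fragments of a gene relative to its length and to the depth of the library, and the depth itself is unknown. Differences are log2 values of FPKM + 1, given ± SE, which understates the change of low genes. Testing required 1 FPKM or more in 4 of the libraries fitted, and a gene was called when the limma p, adjusted over all genes tested, was below 0.05. Of the 76 genes, 9 were listed at 0 in every library, among them Cyp7a1, the first enzyme of bile acid synthesis in liver, and Cyp17a1, an enzyme of androgen synthesis. A further count gave 40 genes that never reached 1 FPKM, including those 9, and 36 that did so in at least 1 library. In the CYP2 family 20 of 38 genes reached it, in the CYP4 family 8 of 15, among the sterol and bile acid enzymes 4 of 6, among the CYP3A genes 2 of 5, among the CYP1 genes 1 of 2, and the only CYP20 gene did. None of the 5 steroid hormone enzymes and none of the 4 vitamin D and retinoid enzymes reached it. In all, 31 genes entered at least 1 comparison and 29 of them were called at least once.

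Summed over the 76 genes, P450 expression was 506 ± 110.2 FPKM (mean ± SD, n = 4) in CON_VD, 402 ± 44.5 in CON_CS, 194 ± 51.9 in DSS_VD and 119 ± 18.8 in DSS_CS. By library the sums were 479, 595, 589 and 361 in CON_VD, 350.2, 446, 430.1 and 379.7 in CON_CS, 255, 218, 142 and 162 in DSS_VD, and 140.5, 99.4, 108 and 129 in DSS_CS. The lowest library on water lay above the highest DSS library, and the highest DSS_CS library lay just below the lowest DSS_VD library. The CYP2 family held 78.2% of the sum in both water groups, 64.2% in DSS_VD and 36.7% in DSS_CS. The CYP4 sum was 47.2 and 38.8 FPKM on water in VD and CS mice and 37.3 and 36.6 FPKM under DSS, and its share of the sum was 9.69% and 9.71% on water and 20.0% and 30.9% under DSS. The sum for the sterol and bile acid enzymes was 20.0, 21.3, 14.0 and 20.1 FPKM in the same order of groups.

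All 8 colon markers, such as the mucin Muc2 and the homeobox gene Cdx2, were detected. The summed level of 10 epithelial markers (Epcam, Cdh1, keratins and others) ran from 4131 to 4861 FPKM in CON_VD, from 4733 to 5060 in CON_CS, from 2024 to 4320 in DSS_VD and from 734 to 2219 in DSS_CS. With DSS, 5 of these 10 markers were called lower in VD mice and 10 of 10 in CS mice, with median log2 differences of -0.69 and -1.96, and between the DSS groups 6 of 10 were lower in CS mice, with a median of -1.30. Of all genes tested 17.0%, 25.9% and 5.54% were called lower in these comparisons, in that order. Marker sums for 6 neutrophil genes stayed under 1 FPKM in every water library and ran from 125 to 633 in DSS_VD and from 728 to 1297 in DSS_CS. In the same groups 7 fibroblast markers ran from 155 to 172, 170.1 to 206, 369 to 812 and 1057 to 1418 FPKM, and 7 macrophage markers from 71.2 to 156, 74.2 to 86.1, 261 to 634 and 531 to 793 FPKM. The part of these shifts in the P450 differences was not tested, and in bulk RNA fewer cells of a type and less RNA per cell cannot be told apart. A sum of 5 prostate and seminal vesicle markers was 189 FPKM in CON_CS replicate 1, 129 in DSS_CS replicate 3 and 1363 in DSS_CS replicate 4, and at most 3.94 in any other library, so results are also given without those 3 libraries.

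More P450 genes were called between DSS and water than between the delivery groups, and most of those called were lower under DSS. In VD mice 18 of the 27 P450 genes tested were called lower, where 17.0% of all 13933 genes tested were lower, and 2 were called higher, where 24.0% of all genes were. In CS mice 20 of 27 were lower and 6 were higher, against 25.9% lower and 34.4% higher among all 14372 genes tested. The median log2 difference was -1.12 in VD mice and -1.19 in CS mice for the P450 genes and 0.06 for all genes in each. Of these 27 genes, 7 in VD mice and 8 in CS mice passed the filter through 1 group alone and so had to differ, which makes these counts and medians a description only. In VD mice they were Cyp2c40, Cyp2c67, Cyp2c69, Cyp2d26, Cyp2f2 and Cyp4f14 through CON_VD and Cyp7b1 through DSS_VD. In CS mice they were Cyp2c40, Cyp2c67, Cyp2d26, Cyp2w1 and Cyp4f14 through CON_CS and Cyp1b1, Cyp4f18 and Cyp7b1 through DSS_CS. For these genes the p-values printed from the filtered fit are no independent support. In the fit without a filter all of them were called in the same direction, with limma adjusted p of up to 0.00342 in VD mice and 0.000277 in CS mice. Among the other genes, 12 of 20 were called lower and 1 higher in VD mice, and 15 of 19 lower and 3 higher in CS mice. Among 25 genes tested in both, 16 were lower in both, 2 were higher in both (Cyp4f18 and Cyp7b1), 6 were called in CS mice and not in VD mice, none was called in opposite directions, and Cyp4f16 was called in neither. Without the libraries with prostate genes, 13 of 19 genes tested in CS mice were called lower and none higher, where 2415 of all 12324 genes tested were lower and 2802 higher. Of the 26 called genes, 8 then fell below the filter and were not tested. They were Cyp4f18, Cyp7b1 and Cyp1b1, which are high with DSS, and Cyp2c40, Cyp2c67, Cyp2d26, Cyp2w1 and Cyp4f14, which are high on water. With so few libraries left, no gene at 1 FPKM in 1 group alone could pass the filter. Cyp4f17, Cyp4v3 and Cyp20a1 were tested and lost their call, as did Cyp2c65 and Cyp2d22. Leaving out CON_VD replicate 1, 2 or 3 gave 11 calls in VD mice and leaving out CON_VD replicate 4 gave 13. Of all genes tested 36.8%, 33.5%, 32.7% and 39.1% were then called, against 40.9% in the main fit. In each case 6 of the 20 called genes fell below the filter, and Cyp2d34, Cyp2d10 and Cyp27a1 (without replicate 4, Cyp2d10 alone) were tested and lost their call. In VD mice Cyp2d34, Cyp2d10 and Cyp27a1 lost their call in some alternatives, with limma adjusted p of up to 0.0839, 0.116 and 0.0833, and in CS mice Cyp27a1, Cyp20a1, Cyp2d22, Cyp4v3, Cyp2c65 and Cyp4f17 did, with limma adjusted p of up to 0.0737, 0.0546, 0.273, 0.244, 0.160 and 0.0644.

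**Figure D1:**
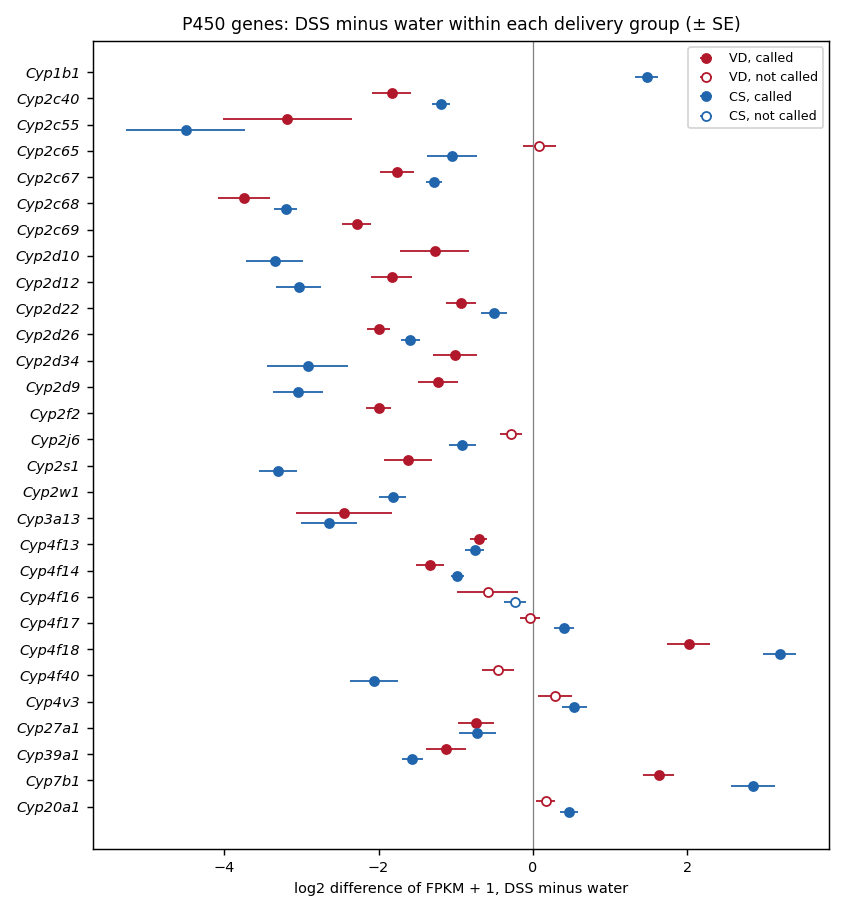
Log2 difference of FPKM + 1 between DSS and water (horizontal axis, ± SE) for the P450 genes tested, in VD mice (red) and CS mice (blue), grouped by family from the top, with filled points for genes called by limma. Most CYP2 genes and Cyp3a13 lie left of 0 in both delivery groups, while Cyp4f18 and Cyp7b1 lie right of it.

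The Cyp2d genes, relatives of the human drug-metabolizing enzyme CYP2D6, held the largest share of P450 RNA on water and were called lower with DSS in both delivery groups for each of 6 members tested there. They lie together on chromosome 15 between positions 82370527 and 82794294 (GRCm38). Summed over 8 Cyp2d genes, expression was 216 FPKM in CON_VD, 180.2 in CON_CS and 26.6 in DSS_CS, with 64.1 to 146 FPKM over the DSS_VD libraries. Cyp2d34 (ENSMUSG00000094559), the highest of all P450 genes on average, had FPKM of 129.7, 127, 118 and 83.2 in CON_VD, 76.6, 71.0, 141 and 123 in CON_CS, 84.7, 75.0, 43.2 and 34.7 in DSS_VD, and 32.7, 3.87, 11.2 and 14.0 in DSS_CS. All DSS_CS libraries were below all DSS_VD libraries, and DSS_VD replicate 1 reached just above the lowest CON_VD library. It fell with DSS in both delivery groups, by a log2 difference of -1.01 ± 0.29 in VD mice and -2.92 ± 0.52 in CS mice (limma adjusted p 0.0207 and 0.00116). Cyp2d10 (ENSMUSG00000094806) had FPKM of 46.8, 43.6, 31.2 and 28.0 in CON_VD, 26.5, 28.7, 29.2 and 35.1 in CON_CS, 27.3, 26.5, 5.69 and 10.1 in DSS_VD, and 3.86, 0.266, 2.33 and 3.03 in DSS_CS. The log2 difference between DSS and water was -1.28 ± 0.45 in VD mice and -3.35 ± 0.37 in CS mice (limma adjusted p 0.0467 and 6.53e-05), and DSS_VD replicates 1 and 2 came close to the lowest CON_VD library. Cyp2d9, a testosterone 16α-hydroxylase of male mouse liver, had FPKM of 38.6, 29.1, 23.0 and 23.4 in CON_VD, 20.7, 14.7, 22.8 and 15.2 in CON_CS, 16.9, 14.4, 7.74 and 8.63 in DSS_VD, and 2.78, 0.168, 1.68 and 1.39 in DSS_CS. The DSS_CS libraries lay below all others, with replicate 2 the lowest. Between water and DSS it fell, by log2 differences of -1.22 ± 0.26 in VD mice and -3.05 ± 0.33 in CS mice (limma adjusted p 0.00483 and 5.47e-05).

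Cyp2d12 had FPKM of 16.6, 20.6, 17.1 and 11.2 in CON_VD, 10.8, 15.2, 27.4 and 13.9 in CON_CS, 7.13, 3.59, 2.71 and 2.83 in DSS_VD, and 1.46, 0.324, 1.21 and 1.48 in DSS_CS. The gene fell with DSS, and the log2 difference was -1.83 ± 0.27 in VD mice and -3.04 ± 0.29 in CS mice (limma adjusted p 0.000663 and 2.91e-05), with no overlap between water and DSS libraries in either. Cyp2d26 had FPKM of 5.63, 4.48, 4.40 and 3.07 in CON_VD, 1.89, 2.50, 3.09 and 2.04 in CON_CS, 0.207, 0.326, 0.391 and 0.395 in DSS_VD, and 0.158, 0.0348, 0.164 and 0.0958 in DSS_CS. Every DSS library was below 1 FPKM and every water library above it. With DSS it fell, with log2 differences of -2.0 ± 0.15 in VD mice and -1.59 ± 0.12 in CS mice (limma adjusted p 3.49e-05 and 7.59e-06). Cyp2d22, the mouse gene usually set beside human CYP2D6, had FPKM of 13.5, 13.7, 9.65 and 15.9 in CON_VD, 8.84, 7.61, 12.1 and 7.37 in CON_CS, 8.44, 4.79, 5.32 and 7.42 in DSS_VD, and 5.51, 7.82, 5.63 and 5.09 in DSS_CS. It fell with DSS in both delivery groups, by a log2 difference of -0.93 ± 0.19 in VD mice and -0.50 ± 0.17 in CS mice (limma adjusted p 0.00445 and 0.0298), the smallest differences of the 6, and in CS mice the libraries overlapped. The coding sequences of Cyp2d10 and Cyp2d11 are 94.7% identical and those of all 7 Cyp2d genes that reached 1 FPKM 77.3% to 94.7%, so the split of reads between single copies depends on how the authors assigned shared reads.

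The Cyp2c genes, which in mouse make epoxides and hydroxy acids from arachidonic acid, held the largest falls among the P450 genes tested on the log2 scale of FPKM + 1: Cyp2c68 in VD mice and Cyp2c55 in CS mice. By the ratio of mean FPKM, which weighs low genes more, Cyp2c69 and Cyp2f2 fell further than Cyp2c68 in VD mice. Their sum was 149.6 FPKM in CON_VD, 93.7 in CON_CS, 14.6 in DSS_VD and 5.14 in DSS_CS. Cyp2c55 (ENSMUSG00000025002), known in mouse for 19-hydroxy-arachidonic acid, had FPKM of 15.3, 144, 139 and 75.2 in CON_VD, 80.1, 136, 24.5 and 25.1 in CON_CS, 25.8, 6.39, 1.40 and 6.70 in DSS_VD, and 8.76, 0.381, 0.406 and 0.482 in DSS_CS. The spread within the water groups was wide, and DSS_CS replicate 1 stood far above the 3 other DSS_CS libraries. That library also had the highest epithelial marker sum of its group. The log2 difference between DSS and water was -3.19 ± 0.84 in VD mice and -4.50 ± 0.77 in CS mice (limma adjusted p 0.0138 and 0.000885). Cyp2c68 (ENSMUSG00000074882) had FPKM of 41.9, 54.5, 55.0 and 18.8 in CON_VD, 18.2, 24.5, 19.4 and 17.0 in CON_CS, 1.78, 1.60, 1.52 and 3.50 in DSS_VD, and 1.01, 0.884, 1.65 and 1.47 in DSS_CS. Between water and DSS it fell, by log2 differences of -3.74 ± 0.34 in VD mice and -3.20 ± 0.15 in CS mice (limma adjusted p 7.63e-05 and 6.41e-07), and no DSS library reached the lowest water library. Its mean on water was 20.2 times that under DSS in VD mice and 15.7 times in CS mice.

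Cyp2c40, Cyp2c67 and Cyp2c69 showed the pattern of Cyp2c68 at lower levels. Cyp2c40 had FPKM of 3.77, 3.82, 4.88 and 1.35 in CON_VD, 1.82, 1.66, 1.06 and 1.43 in CON_CS, 0.173, 0.153, 0.116 and 0.323 in DSS_VD, and 0.144, 0, 0.180 and 0.0261 in DSS_CS. The gene fell with DSS, and the log2 difference was -1.83 ± 0.25 in VD mice and -1.19 ± 0.12 in CS mice (limma adjusted p 0.000513 and 3.66e-05). Cyp2c67 had FPKM of 4.57, 3.65, 4.85 and 1.87 in CON_VD, 1.82, 2.32, 2.36 and 1.94 in CON_CS, 0.284, 0.314, 0.226 and 0.605 in DSS_VD, and 0.307, 0.442, 0.154 and 0.224 in DSS_CS. With DSS it fell, with log2 differences of -1.76 ± 0.22 in VD mice and -1.28 ± 0.10 in CS mice (limma adjusted p 0.000302 and 1.11e-05). Cyp2c69 had FPKM of 3.39, 3.99, 6.29 and 2.69 in CON_VD, 1.08, 0.801, 0.286 and 0.993 in CON_CS, 0.0224, 0, 0 and 0.0212 in DSS_VD, and 0, 0, 0 and 0 in DSS_CS. With DSS it fell by 2.29 ± 0.19 on the log2 scale in VD mice (limma adjusted p 5.59e-05), and it was below the filter in CS mice, where all DSS libraries were listed at 0. Coding sequences are 97.7% identical between Cyp2c67 and Cyp2c69, 97.1% between Cyp2c67 and Cyp2c68 and 96.5% between Cyp2c68 and Cyp2c69. Cyp2c40 is 92.2% to 92.6% identical to these, but its coding sequence has 1560 bases against 1473 in each of them. The extra bases count as differences here, so its identity over the shared part is higher. The levels of single copies are thus uncertain. Summed over the 4 genes, the level was 53.6, 66.0, 71.0 and 24.7 FPKM in CON_VD, 22.9, 29.3, 23.1 and 21.3 in CON_CS, 2.26, 2.07, 1.87 and 4.45 in DSS_VD, and 1.46, 1.33, 1.99 and 1.72 in DSS_CS. The sum does not depend on the split between the 4 copies, and every DSS library was below every water library. Cyp2c65, at the other end of the cluster, had FPKM of 1.85, 1.41, 1.32 and 0.626 in CON_VD, 1.78, 3.73, 2.75 and 1.82 in CON_CS, 1.79, 1.44, 0.679 and 1.84 in DSS_VD, and 2.22, 0.278, 0.163 and 0.598 in DSS_CS. It fell in CS mice by 1.05 ± 0.32 (limma adjusted p 0.0203), with DSS_CS replicate 1 inside the range on water, and its difference in VD mice was 0.08 ± 0.22 (limma adjusted p 0.785).

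Among the other CYP2 genes, Cyp2s1, an enzyme of surface epithelia outside the liver, had FPKM of 14.8, 14.0, 13.7 and 9.76 in CON_VD, 21.0, 23.9, 26.2 and 19.8 in CON_CS, 2.32, 5.21, 1.71 and 6.46 in DSS_VD, and 3.14, 0.919, 0.873 and 1.19 in DSS_CS. It fell with DSS in both delivery groups, by a log2 difference of -1.62 ± 0.31 in VD mice and -3.30 ± 0.24 in CS mice (limma adjusted p 0.00287 and 6.07e-06), and the water and DSS libraries did not overlap. Cyp2w1, known from the fetal gut and colon tumours, had FPKM of 0.520, 1.22, 2.01 and 1.13 in CON_VD, 2.93, 2.63, 4.22 and 2.76 in CON_CS, 0, 0.312, 0.0281 and 0.982 in DSS_VD, and 0.572, 0, 0 and 0.147 in DSS_CS. It fell by 1.82 ± 0.18 in CS mice (limma adjusted p 2.99e-05) and was below the filter in VD mice. Cyp2f2, which in mouse lung activates naphthalene, had FPKM of 2.92, 3.48, 4.56 and 2.21 in CON_VD, 1.14, 1.86, 2.10 and 0.841 in CON_CS, 0.0638, 0.0917, 0.0625 and 0 in DSS_VD, and 0, 0.147, 0.0899 and 0.305 in DSS_CS. It fell by 2.0 ± 0.16 in VD mice (limma adjusted p 5.18e-05), and all 8 DSS libraries were at or below 0.305 FPKM. Cyp2j6, of a subfamily that makes arachidonic acid epoxides, had FPKM of 10.2, 10.4, 8.52 and 8.58 in CON_VD, 7.34, 12.1, 12 and 13.9 in CON_CS, 6.42, 10.2, 6.75 and 7.33 in DSS_VD, and 6.14, 4.72, 5.23 and 5.59 in DSS_CS. It fell by 0.91 ± 0.17 in CS mice (limma adjusted p 0.00164), and in VD mice the difference of -0.28 ± 0.14 was not called (limma adjusted p 0.155).

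**Figure D2:**
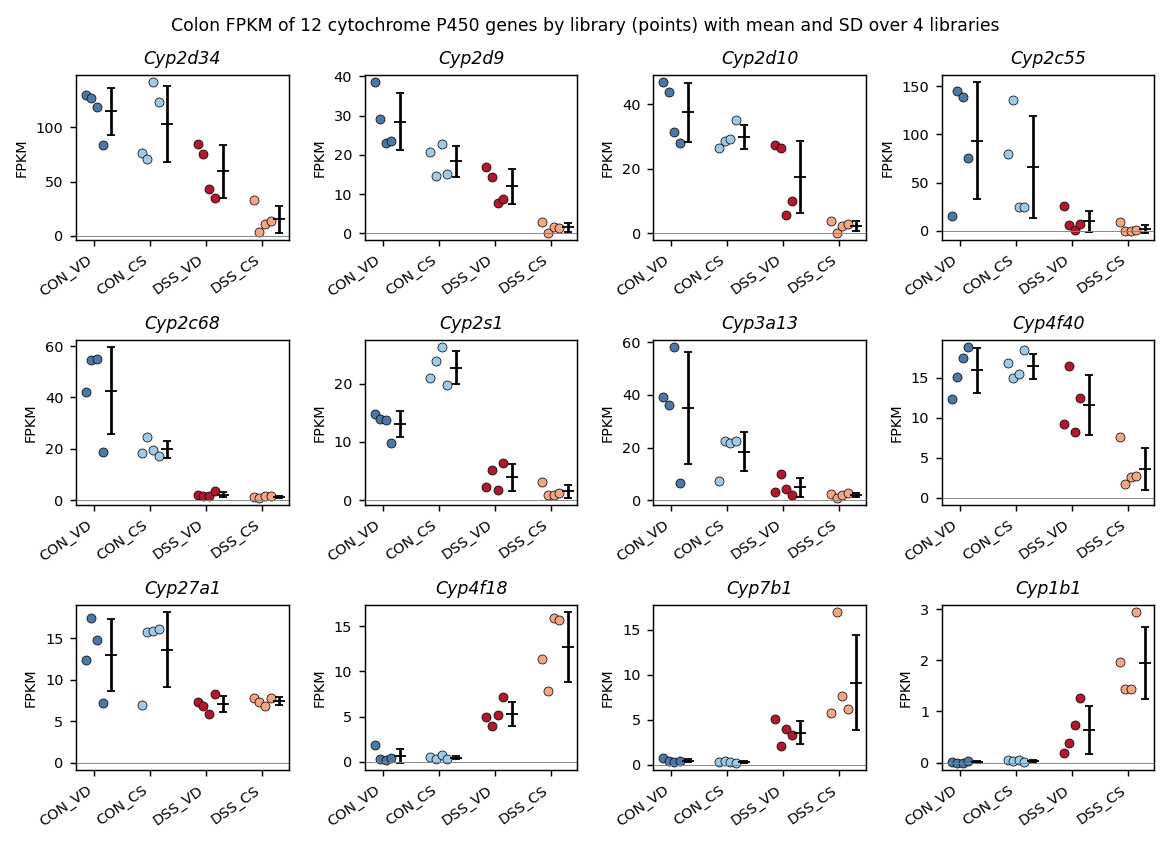
FPKM of 12 P450 genes in each library (points, with the mean and SD over 4 libraries beside them) for the 4 groups on the horizontal axis. Cyp2d34, Cyp2d9 and Cyp2d10 stepped down from water to DSS_VD to DSS_CS, Cyp2c68 was near its lowest level in both DSS groups, and Cyp4f18, Cyp7b1 and Cyp1b1 were highest in DSS_CS.

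Of the CYP3A genes, whose liver members clear many drugs, Cyp3a13 (ENSMUSG00000029727) was the only one well expressed. It had FPKM of 39.2, 36.1, 58.0 and 6.67 in CON_VD, 7.22, 22.6, 21.6 and 22.3 in CON_CS, 3.09, 10.1, 4.37 and 2.13 in DSS_VD, and 2.47, 0.938, 1.80 and 2.56 in DSS_CS. CON_VD replicate 4 and CON_CS replicate 1 were far below the rest of their groups. The log2 difference between DSS and water was -2.45 ± 0.62 in VD mice and -2.64 ± 0.36 in CS mice (limma adjusted p 0.012 and 0.000222). Cyp3a57 was listed at 0 in 13 of the 16 libraries and had 0.0840 FPKM in CON_CS replicate 1, 0.0810 in DSS_CS replicate 3 and 1.19 in DSS_CS replicate 4, the 3 libraries with prostate genes.

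The CYP4 genes split into members that fell and members that rose. Cyp4f40 (ENSMUSG00000090700) had FPKM of 12.4, 15.1, 17.4 and 18.8 in CON_VD, 16.8, 14.9, 15.4 and 18.4 in CON_CS, 9.26, 16.4, 8.21 and 12.4 in DSS_VD, and 7.53, 1.66, 2.58 and 2.70 in DSS_CS. It fell in CS mice by 2.06 ± 0.31 (limma adjusted p 0.000429), and in VD mice the difference of -0.45 ± 0.21 was not called (limma adjusted p 0.118). Cyp4f13 had FPKM of 6.22, 7.28, 7.39 and 6.76 in CON_VD, 4.85, 6.80, 7.75 and 6.81 in CON_CS, 4.59, 3.93, 3.30 and 3.67 in DSS_VD, and 3.75, 3.36, 3.22 and 3.41 in DSS_CS. Between water and DSS it fell, by log2 differences of -0.70 ± 0.11 in VD mice and -0.75 ± 0.12 in CS mice (limma adjusted p 0.000916 and 0.000721), without overlap in either. Cyp4f14, which inactivates leukotriene B4 in mouse, had FPKM of 2.80, 2.40, 3.68 and 1.90 in CON_VD, 1.10, 1.28, 1.15 and 1.09 in CON_CS, 0.560, 0.540, 0.0969 and 0.642 in DSS_VD, and 0.145, 0, 0.0939 and 0.139 in DSS_CS. The gene fell with DSS, and the log2 difference was -1.34 ± 0.18 in VD mice and -0.98 ± 0.09 in CS mice (limma adjusted p 0.000455 and 1.59e-05).

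Cyp4f18 (ENSMUSG00000003484), the leukotriene B4 hydroxylase of mouse neutrophils, went the other way, with FPKM of 1.82, 0.268, 0.141 and 0.353 in CON_VD, 0.518, 0.267, 0.702 and 0.319 in CON_CS, 4.94, 3.98, 5.21 and 7.12 in DSS_VD, and 11.4, 7.84, 15.9 and 15.7 in DSS_CS. With DSS it rose, with log2 differences of 2.02 ± 0.28 in VD mice and 3.20 ± 0.21 in CS mice (limma adjusted p 0.00052 and 3.38e-06). Every DSS library was above every water library. Neutrophil markers rose in the same groups: 5 of 5 tested were called higher in VD mice and 6 of 6 in CS mice. Of all genes tested 24.0% and 34.4% were called higher. The neutrophil markers stayed below 1 FPKM in every water library and passed the filter through DSS libraries alone. They therefore had to differ, and their counts are a description only. The part of these markers in the Cyp4f18 values was not tested. The gene overlaps Zfp961 on the other strand of chromosome 8, and the strand setting of the libraries was not stated. Cyp4v3, the mouse counterpart of the human fatty acid hydroxylase CYP4V2, had FPKM of 4.19, 5.67, 4.27 and 3.18 in CON_VD, 3.29, 4.56, 4.65 and 4.96 in CON_CS, 6.16, 3.17, 7.12 and 5.88 in DSS_VD, and 4.86, 6.71, 8.44 and 7.35 in DSS_CS. It rose in CS mice by 0.54 ± 0.16 (limma adjusted p 0.0184), though its libraries overlapped, and its difference in VD mice was 0.28 ± 0.22 (limma adjusted p 0.339). Cyp4f17 had FPKM of 1.35, 1.51, 1.22 and 0.958 in CON_VD, 0.961, 1.31, 1.36 and 1.05 in CON_CS, 1.42, 0.862, 1.41 and 1.15 in DSS_VD, and 1.72, 2.60, 1.54 and 1.67 in DSS_CS. It rose in CS mice by 0.40 ± 0.13 (limma adjusted p 0.024), while its difference in VD mice was -0.03 ± 0.13 (limma adjusted p 0.856). Cyp4f16 had FPKM of 29.3, 7.42, 12.4 and 8.62 in CON_VD, 7.37, 9.62, 8.70 and 5.64 in CON_CS, 13.0, 7.99, 6.93 and 5.51 in DSS_VD, and 7.46, 6.10, 6.03 and 6.11 in DSS_CS and was called in no comparison, with differences under DSS of -0.58 ± 0.39 in VD mice and -0.23 ± 0.15 in CS mice. Cyp4b1, an enzyme of fatty acids and small protoxins, had FPKM of 0.245, 0.476, 0.224 and 0.497 in CON_VD, 0.0776, 0.278, 0.223 and 0 in CON_CS, 0.507, 0.377, 1.18 and 0.638 in DSS_VD, and 0.856, 1.36, 1.28 and 1.54 in DSS_CS and was below the filter in both DSS contrasts.

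The sterol enzymes also moved in both directions. Cyp27a1 (ENSMUSG00000026170), the mitochondrial sterol 27-hydroxylase of the acidic bile acid pathway, had FPKM of 12.4, 17.4, 14.8 and 7.23 in CON_VD, 6.95, 15.7, 15.8 and 16.1 in CON_CS, 7.34, 6.79, 5.90 and 8.25 in DSS_VD, and 7.86, 7.37, 6.85 and 7.86 in DSS_CS. It fell with DSS in both delivery groups, by a log2 difference of -0.74 ± 0.23 in VD mice and -0.72 ± 0.24 in CS mice (limma adjusted p 0.0301 and 0.0261), but CON_VD replicate 4 and CON_CS replicate 1 lay within the range of the DSS libraries. Cyp39a1, which 7α-hydroxylates 24-hydroxycholesterol, had FPKM of 4.25, 6.84, 7.56 and 7.48 in CON_VD, 6.22, 6.33, 8.45 and 7.47 in CON_CS, 2.28, 1.31, 2.25 and 4.42 in DSS_VD, and 1.27, 1.57, 2.08 and 2.11 in DSS_CS. The log2 difference between DSS and water was -1.12 ± 0.26 in VD mice and -1.56 ± 0.14 in CS mice (limma adjusted p 0.00747 and 1.57e-05). Cyp7b1 (ENSMUSG00000039519), which clears 25- and 27-hydroxycholesterol, had FPKM of 0.710, 0.358, 0.313 and 0.384 in CON_VD, 0.270, 0.392, 0.309 and 0.191 in CON_CS, 5.05, 2.07, 3.94 and 3.26 in DSS_VD, and 5.80, 16.9, 7.63 and 6.18 in DSS_CS. Between water and DSS it rose, by log2 differences of 1.63 ± 0.20 in VD mice and 2.85 ± 0.28 in CS mice (limma adjusted p 0.000285 and 3.17e-05), with every DSS library above every water library and DSS_CS replicate 2 the highest. Macrophage markers were called higher with DSS for 7 of 7 genes in each delivery group, and fibroblast markers likewise for 7 of 7. Of all genes tested 24.0% were called higher in VD mice and 34.4% in CS mice. The part of these markers in the Cyp7b1 rise was not tested.

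Cyp1b1 (ENSMUSG00000024087), an AHR-regulated enzyme of stromal and other cells outside the liver, had FPKM of 0.00665, 0, 0 and 0.0395 in CON_VD, 0.0557, 0.0273, 0.0562 and 0.0162 in CON_CS, 0.186, 0.387, 0.725 and 1.25 in DSS_VD, and 1.97, 1.43, 1.44 and 2.93 in DSS_CS. It was close to 0 on water and above every water library under DSS. In CS mice it rose by 1.47 ± 0.15 (limma adjusted p 4.62e-05), and in VD mice it was below the filter. Cyp1a1, the classical AHR target of the gut epithelium, had FPKM of 0.0687, 0.101, 0.0136 and 0.0151 in CON_VD, 0.0114, 0.140, 0.280 and 0.0734 in CON_CS, 0.335, 0.0305, 0 and 0.124 in DSS_VD, and 0.347, 0.240, 0.0971 and 0 in DSS_CS and passed the filter in no comparison. Cyp20a1, a P450 of unknown substrate, had FPKM of 6.62, 8.91, 8.10 and 7.35 in CON_VD, 9.15, 8.79, 7.46 and 7.74 in CON_CS, 8.15, 7.56, 9.80 and 9.81 in DSS_VD, and 9.95, 14.2, 12.6 and 11.0 in DSS_CS. It rose in CS mice by 0.47 ± 0.12 (limma adjusted p 0.00721) and in VD mice its difference was 0.17 ± 0.12 (limma adjusted p 0.311).

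Members called in some comparison were below the filter in another in 17 cases, and these single comparisons were made with exact two-sided permutation tests on FPKM, without adjustment over them. With 4 against 4 libraries the smallest p is 0.0286, and 5 of the 17 reached it: Cyp1b1 was higher with DSS in VD mice, Cyp4b1 was higher with DSS in CS mice, Cyp2c69 and Cyp2f2 were lower with DSS in CS mice, and Cyp2d26 was lower in DSS_CS than in DSS_VD. Cyp2w1 with DSS in VD mice gave an exact permutation p of 0.0571. Over all P450 genes with a value above 0, the filter left out 143 single comparisons, and groups lay apart in 20 of them. They did so in 5 of 35 with DSS in VD mice, where 12.4% of all genes below the filter did, and in 9 of 34 with DSS in CS mice, where 17.2% did. Between the delivery groups they did so in 3 of 39 under DSS and 3 of 35 on water, against 4.98% and 3.37%. Among the 20, picked here after their values were seen, were Cyp8b1, higher with DSS in VD mice at 0.578 against 0.0917 FPKM, and Cyp2e1, higher in DSS_CS than in CON_CS and DSS_VD.

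Under DSS the colon of CS mice had less RNA of 4 Cyp2d genes and of Cyp4f40 than that of VD mice, and more of Cyp4f18 and Cyp1b1. Of 23 P450 genes tested, 5 were called lower in DSS_CS, where 5.54% of all 14313 genes were, and 2 were called higher, where 7.89% of all genes were. The median log2 difference was -0.31 for the P450 genes and 0.06 for all genes. Cyp2d9 was 11.9 ± 4.47 FPKM (SD, n = 4) in DSS_VD and 1.5 ± 1.07 in DSS_CS, a log2 difference of -2.42 ± 0.37 (limma adjusted p 0.0309). Cyp2d10 differed by -2.36 ± 0.57 (limma adjusted p 0.0367), Cyp2d34 by -2.11 ± 0.55 (0.042), Cyp4f40 by -1.55 ± 0.36 (0.0346) and Cyp2d12 by -1.22 ± 0.29 (0.0368). Cyp4f18 was higher by 1.09 ± 0.23 (limma adjusted p 0.0327) and Cyp1b1 by 0.86 ± 0.23 (0.0456). Cyp1b1 reached 1 FPKM in all 4 DSS_CS libraries and, among the DSS_VD libraries, in replicate 4 alone. It thus passed the filter mainly through its high group, and its p is no independent support. In each of these 7 genes the 4 DSS_CS libraries did not overlap the 4 DSS_VD libraries. The genes were picked by their call in these same libraries, so the separation is no further support. The share of all genes tested with such a separation was not computed.

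Other P450 genes differed without passing the threshold. Cyp2c55 differed by -1.76 ± 0.84 (limma adjusted p 0.183), Cyp2s1 by -0.92 ± 0.38 (0.132), Cyp3a13 by -0.88 ± 0.38 (0.146) and Cyp7b1 by 1.07 ± 0.33 (0.0619). None of the 7 calls remained without the 2 DSS_CS libraries with prostate genes, which left 2 DSS_CS libraries and 21 P450 genes tested. Cyp1b1 was then below the filter and the other 6 were tested and lost. Of all 13756 genes tested 6 were called, against 1923 of 14313 in the main fit. An unadjusted limma p below 0.05 was found for 9 P450 genes. In the main fit 14 of 23 P450 genes and 4698 of all 14313 had one. The 7 calls were also lost without DSS_VD replicate 1, DSS_VD replicate 2 or DSS_CS replicate 3, where 0, 51 and 1 of all genes were called. Left were 3 calls without DSS_VD replicate 4, 2 without DSS_CS replicate 2 and 1 without DSS_CS replicate 4, with 604, 57 and 639 of all genes called. The 6 epithelial markers that were lower in DSS_CS moved with these 4 Cyp2d genes, and the 4 of 6 neutrophil and 5 of 7 fibroblast markers that were higher moved with Cyp4f18 and Cyp1b1. Of all genes tested 5.54% were called lower in DSS_CS and 7.89% higher. The part of these markers in the P450 differences was not tested.

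**Figure D3:**
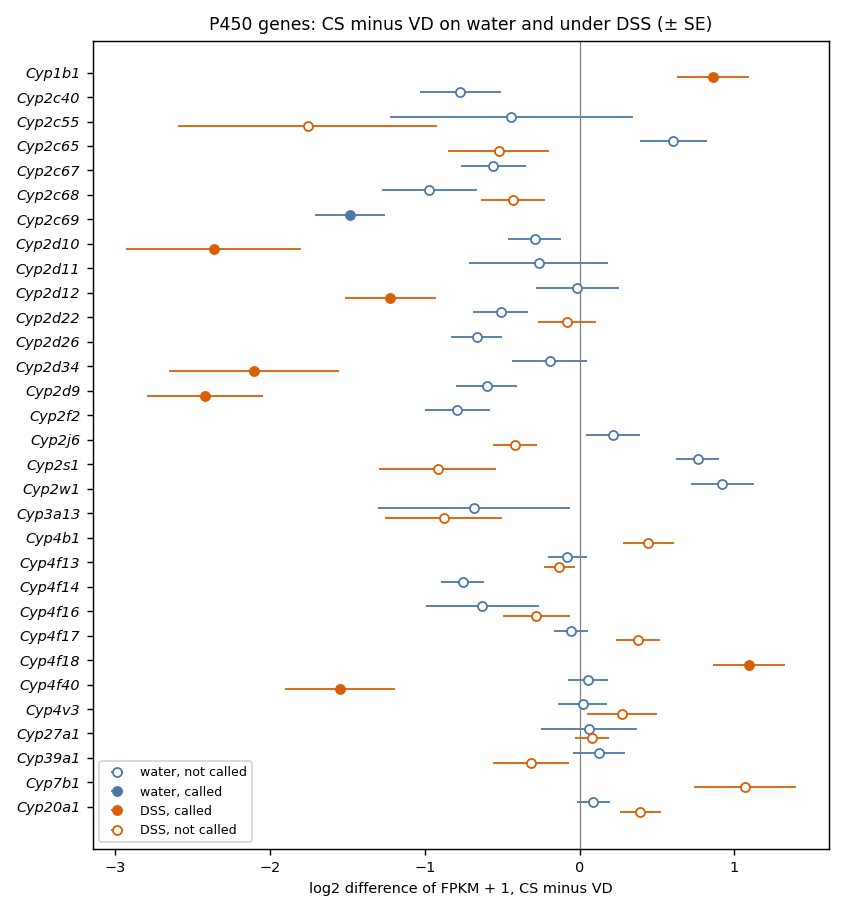
Log2 difference of FPKM + 1 between CS and VD mice (horizontal axis, ± SE) for each P450 gene tested, on water (blue) and under DSS (orange), with filled points for genes called by limma. Cyp2d9, Cyp2d10, Cyp2d12, Cyp2d34 and Cyp4f40 lie far to the left under DSS and closer to 0 on water, and Cyp2c69 is the only P450 gene called on water.

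On normal water CS and VD mice differed in 1 of 27 P450 genes tested. Cyp2c69 was lower in CON_CS, at 0.791 ± 0.357 FPKM (SD, n = 4) against 4.09 ± 1.56 in CON_VD, a log2 difference of -1.48 ± 0.23 (limma adjusted p 0.0363), with no overlap. It reached 1 FPKM in all 4 CON_VD libraries and, among the CON_CS libraries, in replicate 1 alone. The gene thus passed the filter mainly through its high group, and its p is no independent support. Of all 13275 genes tested 0.226% were lower and 0.181% higher in CON_CS, and no P450 gene was called higher. The median log2 difference was -0.26 for the P450 genes and 0.03 for all genes. Its near copies differed in the same direction without passing the threshold: Cyp2c68 by -0.97 ± 0.31 (limma adjusted p 0.165), Cyp2c40 by -0.77 ± 0.26 (0.179) and Cyp2c67 by -0.56 ± 0.21 (0.205). The sum of the 4 copies was 53.8 ± 20.7 FPKM in CON_VD and 24.2 ± 3.50 in CON_CS, and CON_VD replicate 4 at 24.7 lay within the CON_CS range of 21.3 to 29.3. Cyp2s1 was 13.1 ± 2.24 FPKM in CON_VD and 22.7 ± 2.89 in CON_CS, without overlap, and its difference of 0.76 ± 0.14 missed the threshold (limma adjusted p 0.064). Cyp4f14, at 2.69 ± 0.753 and 1.15 ± 0.0858 FPKM, differed by -0.76 ± 0.14 (0.0655), also without overlap. Leaving out CON_VD replicate 4 raised the count to 7 genes, 6 lower and 1 higher in CON_CS, with 275 of all 13104 genes called. Leaving out any other single library brought it to 0, with 0 to 71 of all genes called. An unadjusted limma p below 0.05 was then found for 10 to 12 P450 genes. In the main fit 12 of 27 P450 genes and 2598 of all 13275 had one.

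The interaction of delivery and DSS is the log2 difference between DSS and water in CS mice minus that in VD mice. It was called for 9 of 31 P450 genes, 5 with a higher and 4 with a lower value in CS mice, against 6.68% and 6.55% of all 15233 genes tested. The 5 with a higher value passed the filter through libraries of 1 treatment alone. These were DSS libraries for Cyp1b1, Cyp4b1 and Cyp7b1 and water libraries for Cyp2c69 and Cyp2f2. The count and the p-values of these 5 are therefore a description only. Without a filter 1 of 67 P450 genes was called, where 2.95% of all genes were. Cyp2d10 (-2.07 ± 0.63, limma adjusted p 0.0436), Cyp2d9 (-1.82 ± 0.45, 0.0209), Cyp2s1 (-1.68 ± 0.43, 0.0233) and Cyp4f40 (-1.60 ± 0.40, 0.0222) fell further in CS mice. For Cyp2s1 the CS mean was above the VD mean on water and below it under DSS, though neither difference was called. Cyp7b1 (1.22 ± 0.37, limma adjusted p 0.0409), Cyp1b1 (0.82 ± 0.25, 0.0453) and Cyp4b1 (0.69 ± 0.21, 0.0422) had higher values in CS mice, Cyp4b1 with 0.360 and 0.144 FPKM on water against 0.675 and 1.26 under DSS in VD and CS mice. Cyp2c69 (1.47 ± 0.25, limma adjusted p 0.00759) and Cyp2f2 (0.89 ± 0.25, 0.0315) were near 0 in both DSS groups, and on water Cyp2c69 was called lower in CS mice while Cyp2f2 differed by -0.79 ± 0.21 (0.121), so their interaction follows the difference on water. Without the 3 libraries with prostate genes 1 of 29 genes tested remained called, where 4.3% of all 14820 genes tested were. Cyp2c69 kept its call in every alternative tried. The DSS libraries, at or near 0 for Cyp2c69, add little spread to that fit. Its difference on water, tested directly, lost its call in 12 of 17 alternatives. The count of interaction calls was 4 without CON_VD replicate 2, CON_CS replicate 4, DSS_VD replicate 2 or DSS_CS replicate 3, and 5 without CON_VD replicate 1 or 3 or CON_CS replicate 1 or 3. Of all genes 7.22% to 11.2% were called in these fits, against 13.2% in the main fit.

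Regulators of P450 genes were read from a list of 16, of which 12 were tested in the DSS contrasts. In VD mice 5 were called lower and 3 higher with DSS, where 17.0% of all genes were lower and 24.0% higher. In CS mice 7 were called lower and 4 higher, against 25.9% and 34.4% of all genes. Hnf4a, a nuclear receptor that drives many epithelial P450 genes, had FPKM of 143, 149, 149 and 162 in CON_VD, 149.7, 141, 176 and 150.1 in CON_CS, 65.4, 71.8, 40.3 and 56.4 in DSS_VD, and 36.6, 9.36, 15.3 and 21.6 in DSS_CS. The gene fell with DSS, and the log2 difference was -1.38 ± 0.17 in VD mice and -2.99 ± 0.34 in CS mice (limma adjusted p 0.000324 and 7.28e-05), and between the DSS groups it was lower in CS mice with a difference of -1.58 ± 0.37 (limma adjusted p 0.0356). Nr1i2, the pregnane X receptor that responds to drugs and bile acids, had FPKM of 26.2, 29.1, 26.4 and 25.3 in CON_VD, 29.0, 29.2, 31.0 and 27.7 in CON_CS, 16.9, 20.3, 10.1 and 12.9 in DSS_VD, and 9.49, 1.75, 3.43 and 3.66 in DSS_CS. With DSS it fell, with log2 differences of -0.83 ± 0.19 in VD mice and -2.61 ± 0.34 in CS mice (limma adjusted p 0.00684 and 0.000171). Nr5a2, a receptor that governs bile acid genes in liver, was 9.80 ± 0.836 FPKM in CON_VD, 7.30 ± 0.503 in CON_CS, 1.37 ± 0.423 in DSS_VD and 0.677 ± 0.261 in DSS_CS, and was called lower with DSS in both delivery groups. Ppard and the AHR and NRF2 target Nqo1 were also lower with DSS in both delivery groups. Nr1h4, the bile acid receptor, and Pparg were called lower in CS mice and not called in VD mice. Ahr itself was 3.22 ± 0.519, 3.89 ± 0.550, 4.81 ± 0.809 and 7.46 ± 1.63 FPKM in the same order of groups. It rose with DSS in both delivery groups, by a log2 difference of 0.46 ± 0.14 in VD mice and 0.78 ± 0.15 in CS mice (limma adjusted p 0.0242 and 0.00171), as did its partner Arnt and its target Tiparp. In VD mice the call of Ahr was lost in 7 of 16 alternatives (limma adjusted p of up to 0.0704) and that of Arnt in 11 of 16 (up to 0.129), and in CS mice that of Tiparp was lost in 3 of 17 (up to 0.113). Nr1h3, an oxysterol receptor, was called higher in CS mice and not called in VD mice.

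Between the delivery groups under DSS, 4 of 12 regulators were lower in CS mice (Hnf4a, Nr1i2, Nr1h4 and Ppard) and none was higher, where 5.54% of all genes were lower and 7.89% higher. These calls were lost in 9 of 17 alternatives for Hnf4a, Nr1i2 and Nr1h4 and in 7 of 17 for Ppard, with limma adjusted p of up to 0.152, 0.168, 0.124 and 0.111. The same 4 were called in the interaction, where the call was lost in 2, 1, 1 and 6 of 24 alternatives. On water none of 13 was called. All 10 genes for electron supply and heme were tested in each comparison. Por, the reductase that feeds microsomal P450 enzymes, had means of 15.2, 18.1, 19.0 and 19.4 FPKM and was called in no comparison. Cyb5b, the highest of the list on average, and Fdxr, the ferredoxin reductase, were lower with DSS in both delivery groups, and Pgrmc1 and Fdx1 were lower in VD mice and not called in CS mice, the call of Fdx1 being lost in 6 of 16 alternatives. Hmox1, which breaks heme down, was 2.53 ± 0.267 FPKM in CON_VD, 2.78 ± 0.703 in CON_CS, 17.8 ± 4.99 in DSS_VD and 48.6 ± 11.2 in DSS_CS. The log2 difference between DSS and water was 2.37 ± 0.19 in VD mice and 3.70 ± 0.19 in CS mice (limma adjusted p 5.27e-05 and 9.64e-07), and more so in CS mice by 1.33 ± 0.28 (limma adjusted p 0.0128). Cyb5r3 was higher with DSS in both. Alas1, the first enzyme of heme synthesis, rose in VD mice by 0.89 ± 0.15 (limma adjusted p 0.00156) and was lower in DSS_CS than in DSS_VD with a difference of -0.75 ± 0.17 (0.0337), a call lost in 9 of 17 alternatives (limma adjusted p of up to 0.163). Of the 4 epoxide hydrolases, which open the epoxides that P450 enzymes make, Ephx4 was lower with DSS in both delivery groups. It was above 1 FPKM in every water library and below it in every DSS library. Ephx4 thus passed the filter through water alone and had to differ, so its calls are a description only. Ephx2 was lower with DSS in CS mice and lower in DSS_CS than in DSS_VD with a difference of -0.96 ± 0.18 (limma adjusted p 0.0313). Ephx1 was called in no comparison. The Ephx2 calls were lost in 9 of 17 alternatives with DSS in CS mice (limma adjusted p of up to 0.0750) and in 7 of 17 between the DSS groups (up to 0.124).

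Cyp2e1, the ethanol-oxidizing enzyme of liver and fat, had FPKM of 1.27, 0.0275, 4.93 and 0.811 in CON_VD, 0, 0.414, 0.313 and 0 in CON_CS, 0, 0, 0.445 and 0.145 in DSS_VD, and 0.895, 0.714, 0.540 and 17.5 in DSS_CS and passed the filter in no comparison. Its highest libraries, DSS_CS replicate 4 and CON_VD replicate 3, were also those with the highest sum of 6 adipocyte markers, at 135 and 65.1 FPKM, where no other library exceeded 32.9. DSS_CS replicate 4 is 1 of the libraries with prostate genes. The part of other tissue in the Cyp2e1 values was not tested. Of the other genes that reached 1 FPKM without a call, Cyp2d11 ranged from 0 to 2.45 FPKM over the 16 libraries, Cyp2j9 from 0.429 to 1.66, Cyp2c23 from 0.0334 to 1.35 and Cyp8b1, the bile acid 12α-hydroxylase, from 0.00155 to 1.77, with 3 of 4 DSS_CS libraries between 1.72 and 1.77. A sum of 8 hepatocyte markers ran from 6.42 to 54.9 FPKM over all libraries. In the highest library, DSS_VD replicate 2, Tat alone had 49.4 FPKM and Alb 0.072. Alb was at most 2.25 FPKM in any library.

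**Figure D4:**
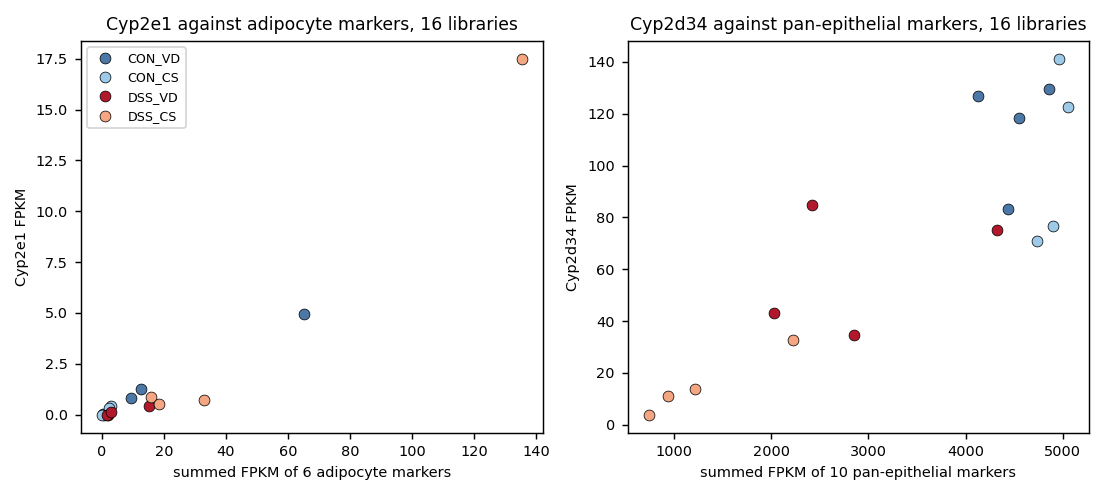
Left, Cyp2e1 FPKM (vertical axis) against the summed FPKM of 6 adipocyte markers (horizontal axis) in each of the 16 libraries, and right, Cyp2d34 FPKM against the summed FPKM of 10 epithelial markers, coloured by group. The 2 libraries with the most Cyp2e1 had the most adipocyte marker RNA, and the DSS_CS libraries were lowest on both axes of the right panel apart from overlap of 1 library with DSS_VD on the horizontal axis.

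The steroid hormone and vitamin D enzymes with the highest means stayed below 1 FPKM throughout. Cyp21a1, the steroid 21-hydroxylase, had FPKM of 0, 0.131, 0.276 and 0.050 in CON_VD, 0.133, 0.0350, 0.0605 and 0.0811 in CON_CS, 0.213, 0.281, 0.0823 and 0.112 in DSS_VD, and 0.536, 0.153, 0.0963 and 0.128 in DSS_CS. Cyp11a1, which starts steroid synthesis from cholesterol, had FPKM of 0.0224, 0.0354, 0 and 0 in CON_VD, 0, 0, 0.0393 and 0 in CON_CS, 0.221, 0, 0.185 and 0.172 in DSS_VD, and 0.101, 0.295, 0.214 and 0.0513 in DSS_CS. Both are adrenal enzymes, and neither reached 1 FPKM in any library. Cyp2r1, a vitamin D 25-hydroxylase, had FPKM of 0, 0.0144, 0.302 and 0.233 in CON_VD, 0.386, 0.211, 0.297 and 0.626 in CON_CS, 0.251, 0.352, 0.235 and 0.0449 in DSS_VD, and 0.155, 0.420, 0.115 and 0.199 in DSS_CS. Cyp27b1, which makes active vitamin D, had FPKM of 0.178, 0.164, 0.0309 and 0.161 in CON_VD, 0.164, 0.113, 0.0218 and 0.0237 in CON_CS, 0.0424, 0, 0.0629 and 0.0801 in DSS_VD, and 0.0275, 0.0188, 0.143 and 0.104 in DSS_CS. At these levels no difference between groups could be tested with the filter used.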

How the data were processed

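RNA sequencing values of 16 colon libraries were used as the FPKM that the authors deposited in 1 table of 39328 genes. Per the submitters' processing notes, cutadapt, FastQC and the build GRCm38 were used. For the aligner, quantifier, annotation and strand setting, nothing is given in the sources used here. Without read counts the depth is unknown, so no counting interval is given. A value of 0 can be a failed estimate.

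Symbols matched 39181 of the gene identifiers and positions came from GENCODE M21. log2(FPKM + 1) was tested with limma 3.58.1 in R 4.3.3 with a variance trend, two-sided, with Benjamini-Hochberg adjustment over all genes tested and a threshold of 0.05. A gene needed 1 FPKM in 4 of the fitted libraries. Pairs of groups were fitted with their 8 libraries, the interaction with 16. The fit was tested on simulated data. For genes below the filter, exact permutation tests (two-sided, scipy 1.17.1) were used.

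The genes and lists were chosen with earlier results of these data known. Library values are printed for members called in at least 1 comparison with a mean of 1 FPKM in the higher group, and for the pair with the highest mean in each role group. Cyp2e1 and the motifs CAAAGTCC and TATAAA were added after values were seen. Coding sequences from GENCODE M21 were aligned pairwise with Biopython 1.88, and identities are shares of the whole alignment, gaps included. Alternatives covered the pseudocount, filter, scaling, variance trend, a fit on all groups, a replicate block, and single libraries or those with prostate genes left out. Figures were drawn with matplotlib 3.10.9. Same-numbered libraries did not deviate together, so replicate numbers were not used as pairs.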

Additional observations from a re-analysis of the deposited data

Results flagged for a closer look

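Groups of 4 libraries were examined for a single library far from the rest wherever the group mean reached 1 FPKM, and 7 of 94 groups had one, where chance gives about 1 in 20. In DSS_CS replicate 1, Cyp2c55 was 8.76 FPKM (0.381 to 0.482 in the other libraries of the group), Cyp2s1 was 3.14 (0.873 to 1.19) and Cyp4f16 was 7.46 (6.03 to 6.11). In CON_CS replicate 1, Cyp27a1 was 6.95 FPKM (15.7 to 16.1 in the others) and Cyp3a13 was 7.22 (21.6 to 22.6). DSS_VD replicate 4 had 3.50 FPKM of Cyp2c68 (1.52 to 1.78 in the others), and DSS_CS replicate 2 had 16.9 FPKM of Cyp7b1 (5.80 to 7.63 in the others). DSS_CS replicate 1 also held the highest epithelial marker sum of its group, at 2219 FPKM, and CON_CS replicate 1 had 189 FPKM of prostate markers.

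The limma interaction of delivery and DSS was called for 9 genes, and for 1 of them without the libraries with prostate genes. Of all genes tested 13.2% and 4.3% were called in these fits. The response in CS mice minus that in VD mice was -2.07 for Cyp2d10, -1.82 for Cyp2d9, -1.60 for Cyp4f40 and -1.68 for Cyp2s1. It was 1.22 for Cyp7b1, 0.89 for Cyp2f2, 1.47 for Cyp2c69, 0.82 for Cyp1b1 and 0.69 for Cyp4b1, all in log2 units of FPKM + 1. The genes with a positive value passed the filter through libraries of 1 treatment alone, so their calls are a description only. Cyp2c69 and Cyp2f2 were near 0 in both DSS groups, so their values follow the difference between CS and VD mice on water.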

How the results depend on the processing

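Over all alternatives tried, 1039 values of called P450 genes were recomputed: 837 kept their call, 202 lost it and 0 reversed direction. With DSS in VD mice 10 of 20 genes were tested in all 16 alternatives and kept their call, and 7 more kept it in the 12 that tested them and were below the filter in the rest. With DSS in CS mice these were 12 of 26 genes in all 17 alternatives and 8 more in 12. In the interaction 1 of 9 genes kept its call in all 24 alternatives, and between CS and VD mice 0 of 7 under DSS and 0 of 1 on water did in 17. For CS against VD under DSS the 7 calls became 0 without a filter, 0 with a replicate block, 0 without the libraries with prostate genes and 12 in 1 fit on all 4 groups. The share of all genes called went from 13.4% to 0.00911%, 0.014%, 0.0436% and 26.9%. With 1 library left out 0 to 6 P450 genes and 0% to 14.6% of all genes were called. Where 0 were called, limma gave 16, 13, 9 and, with a library left out, 10 to 13 P450 genes with an unadjusted p under 0.05. In the main fit 14 of 23 P450 genes and 4698 of all 14313 were under it. That count over all genes was not computed for the alternatives. For CS against VD on water the 1 call became 0 with a pseudocount of 0.1, without a filter, with TPM, with a replicate block and without the libraries with prostate genes (12, 16, 11, 11 and 12 at an unadjusted p under 0.05), 3 in 1 fit on all groups, and 0 to 7 with 1 library left out (10 to 12 unadjusted where 0). Of all genes 0.407% were called in the main fit and 0.339%, 0.0095%, 0.211%, 0.0527% and 0.115% in the settings first named. These shares were 0.58% in the fit on all groups and 0% to 2.1% with 1 library left out. In the main fit 12 of 27 P450 genes and 2598 of all 13275 had an unadjusted limma p under 0.05. With DSS in VD mice the 20 calls became 11 to 21 with 1 library left out, with 11 to 13 when it was a CON_VD library: 6 genes then fell below the filter and 1 to 3 were tested and lost their call. Of all genes 40.9% were called in the main fit and 30.5% to 40.5% with 1 library left out. With DSS in CS mice the 26 calls became 13 without the libraries with prostate genes, with 19 genes tested. Of all genes 42.3% were then called, against 60.3% in the main fit. The 9 interaction calls became 5 with a pseudocount of 0.1, 1 without a filter, 1 without the libraries with prostate genes, and 4 to 11 with 1 library left out. The share of all genes called went from 13.2% to 11.1%, 2.95% and 4.3%, and to 7% to 16.7% with 1 library left out. The replicate block gave 19 calls with DSS in VD mice, 26 in CS mice and 6 in the interaction; correlations of same-numbered libraries ran from -0.28 to 0.13, so the numbers do not pair the libraries. Median-of-ratios scaling shifted the median log2 difference of all genes with DSS in CS mice by -0.11, and the other shifts with it or with TPM were smaller. It turned the split of all genes called higher and lower with DSS from 3340 and 2364 to 2937 and 3024 in VD mice and from 4937 and 3729 to 4157 and 4600 in CS mice, while P450 genes were called 2 and 18 in VD mice and 5 and 20 in CS mice. The split of all genes called higher and lower on water was 24 and 30, but 23 and 46 with median-of-ratios scaling and 21 and 14 with TPM. In the interaction it was 1017 and 998, but 612 and 906 with TPM. Of 864 values of called regulator, electron supply, heme and epoxide hydrolase genes, 709 kept their call, 155 lost it and 0 reversed. The cause of these changes was not tested beyond the filter and the number of libraries. Depth is unknown, and the 45 genes tested in no comparison can differ without being seen here.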
